A study of Mus musculus with 4 samples.

Results

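The tissue examined here was the periportal zone of 4 mouse liver sections from a pair of liver cancer models: 3541 of the 10627 spots kept. Visium captures messenger RNA on a slide printed with a grid of barcoded spots, and each captured molecule carries a unique molecular identifier (UMI), so that a count of UMIs is a count of molecules. STAM, sampled as sections STAM16w and STAM20w, is described in the series' design as a metabolic liver cancer model that mimics steatohepatitis with type I diabetes. DEN+CCl4, sampled as sections DEN22w and DEN30w, is described as a fibrotic model driven by DNA damage; the agents are diethylnitrosamine, a DNA-damaging carcinogen, and carbon tetrachloride, a liver toxin. The labelled times are 16 and 20 weeks for STAM and 22 and 30 weeks for DEN+CCl4, with 1 section at each time. The tissue was fresh-frozen liver in all 4 sections, and the labels name no strain, sex, diet, dose or animal. Model and time share no value, so they cannot be told apart, nor can any difference of strain or handling that runs with the model. Whether the 4 sections are from different animals is not labelled, and p-values measure only the spread between them.

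Each kept spot (at least 500 UMIs and 250 genes) was scored as log2((PP + 1)/(PC + 1)). PP is the summed UMIs of Cyp2f2, Hal, Sds, Ass1 and Pck1 per 10000 UMIs of the spot, and PC is that of Cyp2e1, Cyp1a2, Oat and Glul. The periportal zone of a section was the third with the highest scores, chosen by the measured UMIs of these genes: 693 and 944 spots in STAM16w and STAM20w, against 915 and 989 spots in DEN22w and DEN30w. These spots held 6600918, 12515751, 9362032 and 12559365 UMIs in the same order of sections. UMIs were summed over them, and a level is given as CPM, UMIs per 1000000 of that sum. The 9 scoring genes chose the spots and are not reported as results.

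Blood enters the liver lobule at the portal tracts and leaves at the central vein, and hepatocytes along that path divide their work. Periportal hepatocytes, which receive the most oxygen, nutrients and pancreatic hormones, are known for urea synthesis, gluconeogenesis, amino acid breakdown, fatty acid oxidation and secretion of plasma proteins. Pericentral hepatocytes are known for glutamine synthesis, drug metabolism and bile acid synthesis. PPAR-alpha is the fatty acid-activated receptor that switches on fatty acid oxidation genes in hepatocytes, and lipid droplets are the organelles in which they store triglyceride.

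The zone maps show periportal and pericentral spots interleaved as patches a few spots wide in all 4 sections. Of the contacts of periportal spots with other kept spots, 58.7% and 63.6% led to another periportal spot in the STAM sections, against 57.4% and 53.9% in the DEN+CCl4 sections. STAM20w also held wide blocks of a single zone. Spots in compact patches, where at least 15 kept spots lay within 2 steps and all belonged to the same zone, made up 150 periportal and 302 pericentral spots in STAM20w (15.9% and 31.99% of those zones). The other sections had 0 such periportal spots and between 16 and 48 such pericentral spots. Counts of calls and several results that rest on STAM20w are also given without these patches.

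**Figure D1:**
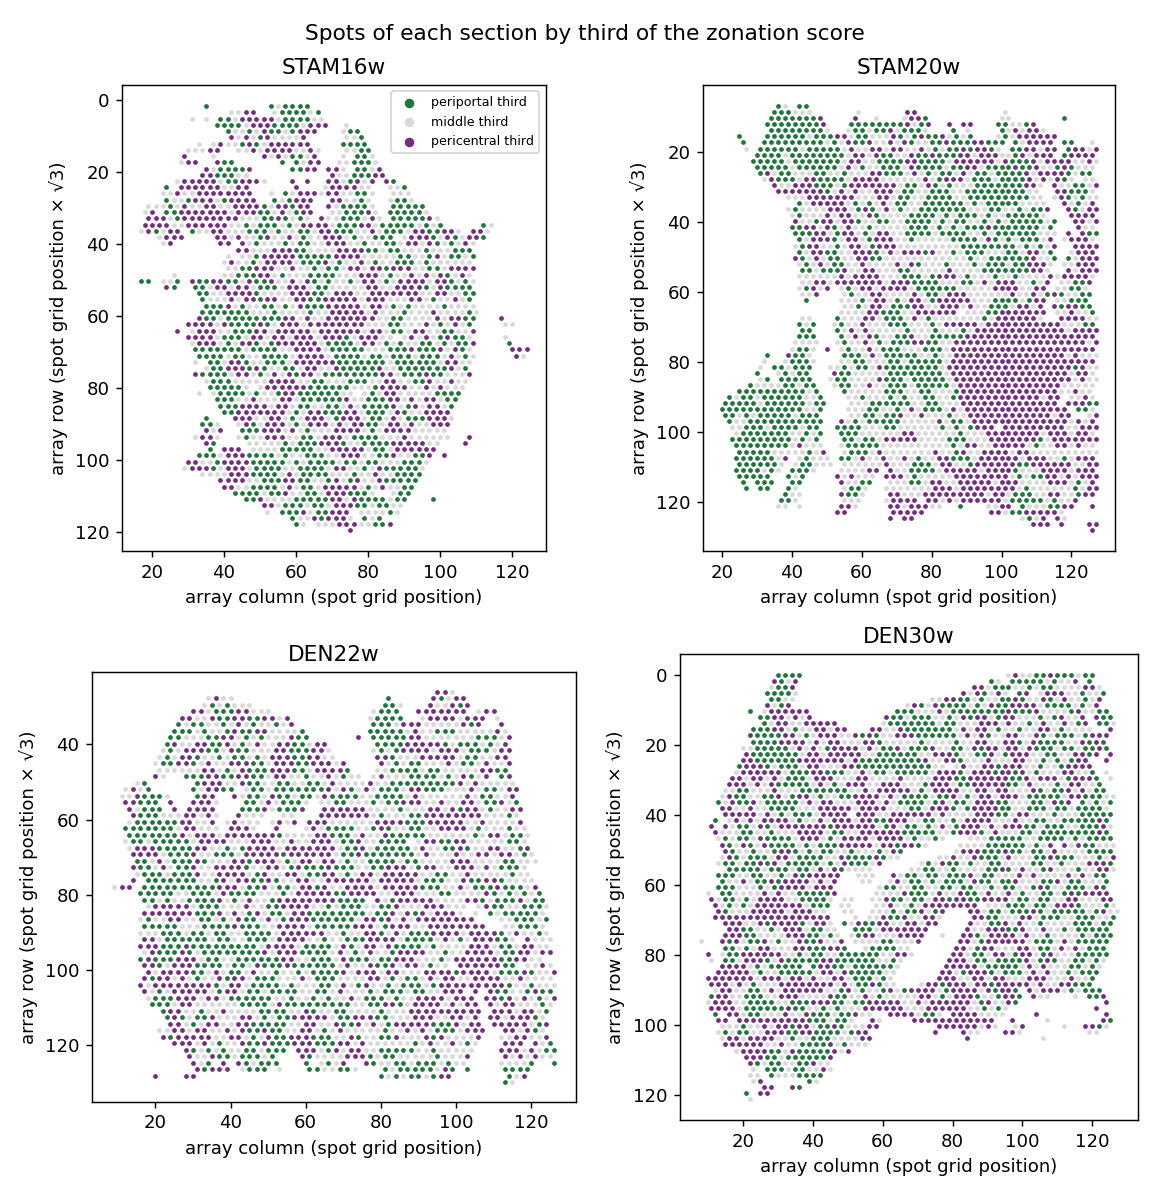
Position of every kept spot on the array (columns and rows of the spot grid) in STAM16w and STAM20w (top) and DEN22w and DEN30w (bottom), coloured by zone. Green and purple spots alternate across each section, apart from the wide purple block and the green corner block of STAM20w.

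The zones do not span the same range of score in both models. The lowest score inside the periportal zone was 0.77 in STAM16w and 0.95 in STAM20w, against 2.74 in DEN22w and 2.34 in DEN30w; the highest score just outside it was 0.77, 0.95, 2.74 and 2.33. The median score of all kept spots was 0.13 and 0.21 in the STAM sections, against 1.99 and 1.74 in the DEN+CCl4 sections. With 1 cut of the score for all sections, 173 and 421 spots of STAM16w and STAM20w would count as periportal, against 1512 and 1436 of DEN22w and DEN30w. These scores are the values that chose the spots and are given as a description.

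**Figure D2:**
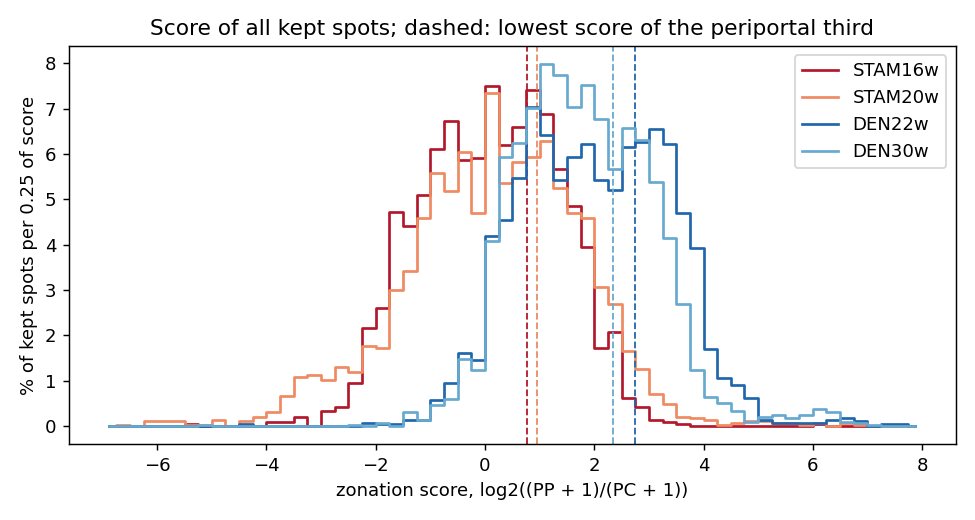
Distribution of the zonation score over kept spots, as percent of spots per 0.25 of score, for STAM16w, STAM20w, DEN22w and DEN30w; dashed lines mark the lowest score inside each section's periportal zone. The STAM lines lie at 0.77 and 0.95, the DEN+CCl4 lines at 2.74 and 2.34.

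The label was checked with zonated genes that are not in the score. All 15 of 15 such periportal genes, among them Gls2, Cps1, Arg1 and Etnppl, were higher in the periportal than in the pericentral zone of every section, with median log2 ratios of 0.82 in STAM16w and 1.09 in STAM20w, against 0.54 in DEN22w and 0.59 in DEN30w. All 15 of 15 pericentral genes, among them Slc1a2, Lgr5, Axin2 and Cyp2c29, were lower there in every section, with medians of -1.17 and -1.70 in the STAM sections, against -1.50 and -1.07 in the DEN+CCl4 sections. Depth differed by zone in opposite directions. The median UMI count of a periportal spot was 9265 in STAM16w and 12279.5 in STAM20w, against 9780 in DEN22w and 11027 in DEN30w, while that of a pericentral spot was 10422 and 13198.5 in the STAM sections, against 5801 and 8256 in the DEN+CCl4 sections.

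Which genes differ between the models in periportal tissue was asked with edgeR's quasi-likelihood test on the 4 summed profiles, 2 STAM against 2 DEN+CCl4. Of 12800 genes tested, 29 were called higher in STAM (0.227%) and 17 lower (0.133%) at an adjusted p under 0.05, and 2693 genes had an unadjusted p under 0.05. Of the 12800 genes, 6354 had a positive and 6446 a negative log2 fold change, and counts in the lists below are to be read beside these. Both STAM sections lay above or below both DEN+CCl4 sections for 6959 of the tested genes (54.4%), and for all 46 called genes. The called genes higher in STAM included fatty acid hydroxylases (Cyp4a14, Cyp4a10, Cyp4a31) and proteins of fat storage and handling (Fitm1, Mogat1, Slc27a1). They also included a pantetheinase (Vnn1) and detoxification enzymes (Gsta1, Cbr3, Cyp2c37). Those lower in STAM included hepcidin 2 (Hamp2), a retinoic acid hydroxylase (Cyp26a1), complement proteases (C1rb, C1s2) and a bile acid transporter (Slc10a2). The number of calls depended on single sections. Without DEN30w the same edgeR test called 0 genes, with 1308 genes at an unadjusted p under 0.05, and without DEN22w it called 2 genes higher and 5 lower. Without STAM16w it called 538 higher and 499 lower, and without STAM20w 86 and 37. Each of these fits has a lone section in 1 model, which is assumed to vary like the other model's pair.

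**Figure D3:**
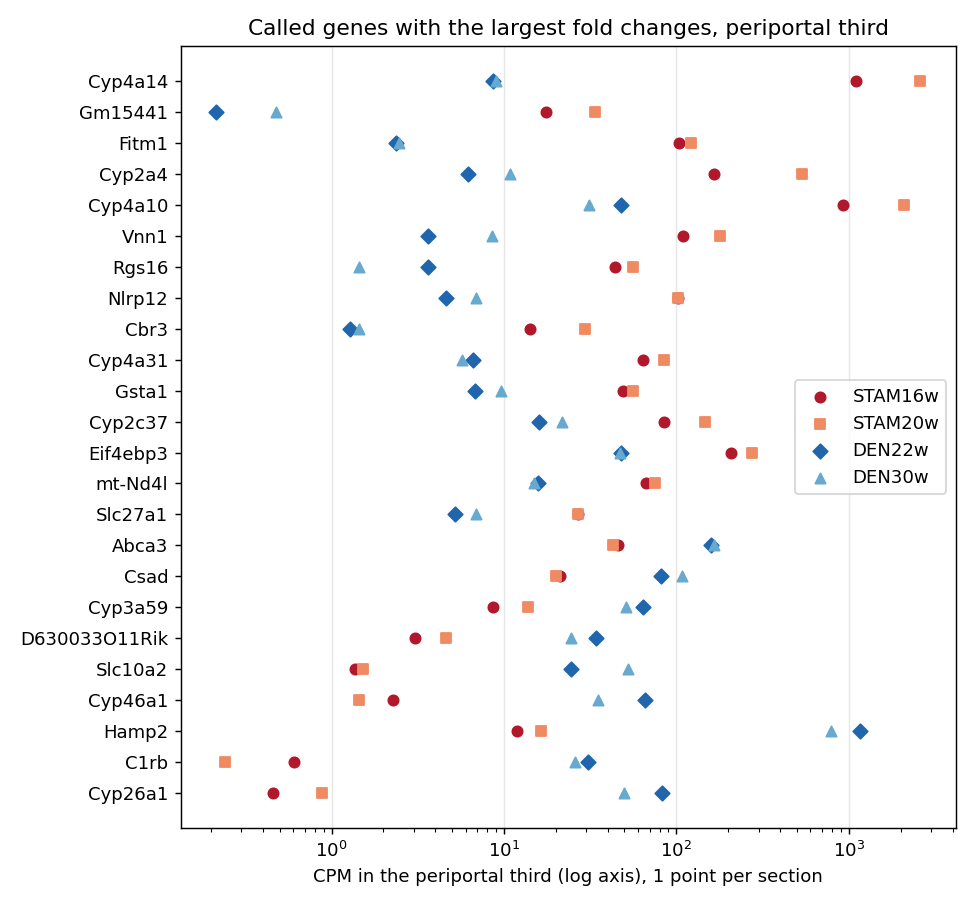
CPM in the periportal zone (log axis) of the called genes with the largest fold changes at 20 CPM or more in the higher model, 1 point per section. For every gene the 2 STAM points (red and orange) lie on 1 side of the 2 DEN+CCl4 points (blues), with Cyp4a14 at the top and Cyp26a1 at the bottom.

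Fatty acid oxidation and PPAR-alpha target genes gave the largest called difference at a high level. Cyp4a14 (ENSMUSG00000028715; chromosome 4, 115486200 to 115496158 in GRCm38.p6), which hydroxylates the far end of fatty acids and is a PPAR-alpha target in mouse liver, stood at 1100.2 and 2601 CPM in STAM16w and STAM20w, against 8.65 and 8.997 CPM in DEN22w and DEN30w. Both STAM sections lay far above both DEN+CCl4 sections (log2 fold change 7.78 ± 0.58, edgeR adjusted p = 0.0159; errors of log2 values are SE). Its neighbours on chromosome 4 and members of the same family followed. Cyp4a10 had 922 and 2100.2 CPM in STAM16w and STAM20w, against 48.0 and 31.2 CPM in DEN22w and DEN30w (log2 fold change 5.31 ± 0.55, edgeR adjusted p = 0.0319). Cyp4a31 had 63.8 and 85.1 CPM in the STAM sections, against 6.62 and 5.73 CPM in the DEN+CCl4 sections (log2 fold change 3.67 ± 0.25, edgeR adjusted p = 0.0149). Reads shared by these near-identical genes can be divided unevenly between them, so values of single members are uncertain. Vnn1, a pantetheinase that releases pantothenate and cysteamine, stood at 109 and 179.5 CPM in the STAM sections, against 3.63 and 8.52 CPM in the DEN+CCl4 sections (log2 fold change 4.65 ± 0.44, edgeR adjusted p = 0.0252).

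The rest of the pathway leaned the same way without passing the test. Of its 30 genes tested, 4 were called higher in STAM and 0 lower, and 27 had a positive log2 fold change. Both STAM sections lay above both DEN+CCl4 sections for 22 of the 30 and below both for 0. Over all genes tested, 54.4% were separated in either direction. The median log2 fold change was 1.03, beside -0.004 over all genes tested. Members that were not called included Ehhadh, an enzyme of peroxisomal oxidation, with 316 and 658 CPM in STAM16w and STAM20w, against 143 and 101 CPM in DEN22w and DEN30w (edgeR adjusted p = 0.0872). Cpt1a, the gate of fatty acid entry into mitochondria, had 268 and 299 CPM in the STAM sections, against 148 and 184 CPM in the DEN+CCl4 sections (adjusted p = 0.131). Some mitochondrial oxidation enzymes overlapped between the models: Acadvl had 412 and 386 CPM in the STAM sections, against 405 and 376 CPM in the DEN+CCl4 sections. Acaa2 had 1091 and 844 CPM in the STAM sections, against 1099.9 and 921 CPM in the DEN+CCl4 sections. The most abundant member, Fabp1, the fatty acid-binding protein of hepatocytes, stood at 18019 and 10676 CPM in the STAM sections, against 11585 and 4777 CPM in the DEN+CCl4 sections and overlapped as well. Fgf21, a hormone made by fasted liver, had 29.5 and 89.4 CPM in the STAM sections, against 3.31 and 8.04 CPM in the DEN+CCl4 sections (log2 fold change 3.46, adjusted p = 0.0718).

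Fitm1 (ENSMUSG00000022215; chromosome 14, 55575674 to 55576952), a protein of the endoplasmic reticulum that helps to package triglyceride into droplets, had the smallest adjusted p of the comparison. It stood at 104 and 122 CPM in STAM16w and STAM20w, against 2.35 and 2.47 CPM in DEN22w and DEN30w (log2 fold change 5.63 ± 0.24, edgeR adjusted p = 0.00349), with both models tight around their own level. Of the 17 lipid droplet genes tested, 1 was called higher, 0 were called lower, 15 had a positive log2 fold change and the median was 1.26. Over all 12800 genes tested, 0.227% were called higher, 6354 had a positive log2 fold change and the median was -0.004. Cidec, which fuses droplets into larger ones, had 34.8 and 154 CPM in the STAM sections, against 1.60 and 0.955 CPM in the DEN+CCl4 sections, separated between the models but short of the threshold (log2 fold change 6.28, adjusted p = 0.0546). Its relative Cidea had 22 and 239 UMIs in STAM16w and STAM20w, against 0 and 0 UMIs in DEN22w and DEN30w. Plin2, the main droplet coat of hepatocytes, had 662 and 1657 CPM in the STAM sections, against 327 and 440.5 CPM in the DEN+CCl4 sections (adjusted p = 0.136). Cd36, a fatty acid uptake receptor, had 151 and 262 CPM in the STAM sections, against 48.4 and 65.6 CPM in the DEN+CCl4 sections (adjusted p = 0.0627). Cideb and Plin3 had log2 fold changes below 0 (-0.32 and -0.14). In bulk spots, fewer cells of a type and less RNA per cell cannot be told apart, and this holds for all levels given here.

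Fat and sterol synthesis genes leaned to lower values in STAM, with 1 called gene that ran against the rest. Of 17 fatty acid synthesis genes tested, 12 had a negative log2 fold change, 0 were called lower, and the median was -0.48. Over all 12800 genes tested, 6446 had a negative log2 fold change, 0.133% were called lower and the median was -0.004. Scd1, the desaturase that makes monounsaturated fatty acids, had 92.9 and 1094 CPM in STAM16w and STAM20w, against 2918 and 5294 CPM in DEN22w and DEN30w; the pair of values in each model was far apart, and the difference was not called (adjusted p = 0.213). Fasn, the fatty acid synthase, had 165 and 284 CPM in the STAM sections, against 656 and 374 CPM in the DEN+CCl4 sections (adjusted p = 0.200). Mogat1, which joins an acyl chain to monoacylglycerol on the way to triglyceride, was the member called higher, at 13.0 and 21.3 CPM in the STAM sections, against 1.17 and 0.717 CPM in the DEN+CCl4 sections (log2 fold change 4.28 ± 0.40, edgeR adjusted p = 0.0252). Slc27a1, a fatty acid transport protein, was also called higher, with 27.0 and 27.0 CPM in the STAM sections, against 5.23 and 6.85 CPM in the DEN+CCl4 sections (log2 fold change 2.25 ± 0.21, edgeR adjusted p = 0.0252), as was Nceh1, a hydrolase of cholesterol esters, with 47.7 and 55.8 CPM in the STAM sections, against 10.9 and 13.1 CPM in the DEN+CCl4 sections (log2 fold change 2.20 ± 0.20, edgeR adjusted p = 0.0245). Of 20 cholesterol synthesis and uptake genes, 16 had a negative log2 fold change and the median was -0.50, but 0 were called.

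Enzymes of detoxification gave calls on both sides. Over all 12800 genes tested, 0.227% were called higher and 0.133% lower, and 6354 had a positive log2 fold change. Of 24 NRF2 targets and glutathione transferases, 2 were called higher, 0 lower, 21 had a positive log2 fold change and the median was 0.45. Gsta1, a glutathione transferase, had 48.8 and 55.8 CPM in STAM16w and STAM20w, against 6.84 and 9.55 CPM in DEN22w and DEN30w (log2 fold change 2.76 ± 0.22, edgeR adjusted p = 0.0180). Cbr3, a carbonyl reductase, had 14.1 and 29.4 CPM in the STAM sections, against 1.28 and 1.43 CPM in the DEN+CCl4 sections (log2 fold change 4.07 ± 0.41, edgeR adjusted p = 0.0291). Drug-metabolising cytochromes outside the score were called in both directions, 2 of 25 called higher and 2 lower, with a median of -0.12. Cyp2c37 had 84.8 and 146 CPM in the STAM sections, against 16.02 and 21.8 CPM in the DEN+CCl4 sections (log2 fold change 2.69 ± 0.30, edgeR adjusted p = 0.0332) and Cyp2c38 had 10.00 and 23.7 CPM in the STAM sections, against 1.07 and 1.35 CPM in the DEN+CCl4 sections (log2 fold change 3.86 ± 0.47, edgeR adjusted p = 0.0454). In the other direction, Cyp3a59 had 8.64 and 13.7 CPM in the STAM sections, against 63.9 and 51.0 CPM in the DEN+CCl4 sections (log2 fold change -2.27 ± 0.28, edgeR adjusted p = 0.0491) and Cyp2c55 had 0.151 and 0.959 CPM in the STAM sections, against 12.3 and 18.5 CPM in the DEN+CCl4 sections (log2 fold change -4.47 ± 0.53, edgeR adjusted p = 0.0423). Cyp3a11, the most abundant of these and the main steroid and drug hydroxylase of mouse liver, had 225 and 473 CPM in the STAM sections, against 2807 and 2057 CPM in the DEN+CCl4 sections; it was separated by model but not called (adjusted p = 0.0703).

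Sex-dependent genes were uneven between the sections of a model. Mouse liver expresses sets of genes under the control of the pulse pattern of growth hormone, some higher in males and some in females. Of 25 female-biased genes, 15 passed the filter on low counts and were tested. Of these 15, 1 was called higher in STAM, 12 had a positive log2 fold change, and the median was 2.64. A gene near 0 in DEN+CCl4 could pass the filter through its STAM counts alone, so this count and median partly follow from the filter. The median ran from 0.66 to 3.23 over the alternatives and was 1.41 in the pericentral zone. The called gene was Cyp2a4, a steroid hydroxylase, with 165 and 538 CPM in STAM16w and STAM20w, against 6.20 and 10.8 CPM in DEN22w and DEN30w (log2 fold change 5.43 ± 0.64, edgeR adjusted p = 0.0423). Cyp2b9, of the same list, had 27.7 and 536 CPM in the STAM sections, against 5.45 and 4.54 CPM in the DEN+CCl4 sections, a difference between STAM20w and STAM16w that was larger than that between STAM16w and the DEN+CCl4 sections (adjusted p = 0.106). Without the compact patches its log2 fold change was 5.90 (adjusted p = 0.0998). Of 28 male-biased genes tested, 0 were called, and the median was 0.45. Mup20, a major urinary protein, had 34027 and 1617 CPM in the STAM sections, against 5071 and 1446 CPM in the DEN+CCl4 sections, and the list as a whole took 11.5% of the periportal UMIs of STAM16w and 0.630% of those of STAM20w, against 2.47% in DEN22w and 1.03% in DEN30w. Mup sequences are nearly identical, so values of single Mup genes are uncertain. Reads of Cyp2a4 could likewise be shared with Cyp2a5, of the same family. Cyp2a5 had 1088 and 853 CPM in the STAM sections, against 112 and 56.8 CPM in the DEN+CCl4 sections.

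Genes of the mitochondrial genome had higher levels in STAM, and 2 were called. All 13 of 13 had a positive log2 fold change, and the median was 0.94. For 12 of 13 both STAM sections lay above both DEN+CCl4 sections, and for 0 below both. Over all genes tested, 54.4% were separated in either direction. Both called members encode subunits of respiratory complex I. The first was mt-Nd4l, with 66.8 and 75.1 CPM in STAM16w and STAM20w, against 15.8 and 14.97 CPM in DEN22w and DEN30w (log2 fold change 2.29 ± 0.20, edgeR adjusted p = 0.0222). The other was mt-Nd5, with 234 and 267 CPM in the STAM sections, against 61.8 and 54.9 CPM in the DEN+CCl4 sections (log2 fold change 2.18 ± 0.24, edgeR adjusted p = 0.0332). The more abundant mt-Co1, a subunit of cytochrome oxidase, had 4463 and 6242 CPM in the STAM sections, against 2802 and 2974 CPM in the DEN+CCl4 sections and was not called (adjusted p = 0.215). These genes together took 1.99% and 2.65% of periportal UMIs in STAM16w and STAM20w, against 1.3001% and 1.33% in DEN22w and DEN30w. Ribosomal protein genes took 4.11% and 6.48% in the STAM sections, against 3.18% and 3.16% in the DEN+CCl4 sections. Both shares can move with RNA quality as well as with expression, and their part in the other results was not tested.

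Most interferon response genes had higher levels in STAM, with 1 call. Interferons switch on many of their targets through a short DNA element upstream of them, the interferon-stimulated response element. Of 28 genes tested, 23 had a positive log2 fold change, and the median was 1.28. Both STAM sections lay above both DEN+CCl4 sections for 23 and below both for 4. Over all genes tested, 54.4% were separated in either direction. An unadjusted edgeR p under 0.05, in either direction, was found for 24 of the 28, beside 2693 of all 12800 genes tested. Isg15 (ENSMUSG00000035692; chromosome 4, 156199424 to 156200818), a ubiquitin-like protein, was the called member, with 55.9 and 60.0 CPM in STAM16w and STAM20w, against 12.5 and 15.2 CPM in DEN22w and DEN30w (log2 fold change 2.16 ± 0.20, edgeR adjusted p = 0.0245). Among members that were not called, Ifit3, an RNA-binding effector, had 38.8 and 32.9 CPM in the STAM sections, against 4.59 and 8.92 CPM in the DEN+CCl4 sections (log2 fold change 2.50, adjusted p = 0.0546). Ifit1, of the same family, had 18.9 and 13.4 CPM in the STAM sections, against 1.60 and 3.90 CPM in the DEN+CCl4 sections (adjusted p = 0.0666). Rsad2, an antiviral enzyme also called viperin, had 15.9 and 13.6 CPM in the STAM sections, against 1.60 and 8.92 CPM in the DEN+CCl4 sections (adjusted p = 0.233). Stat2 and Irf1 had log2 fold changes below 0 (-0.52 and -0.44). A pair of members ran fully the other way: Ifi44l had 0 and 0 UMIs in STAM16w and STAM20w, against 29 and 42 UMIs in DEN22w and DEN30w, and Ifi202b had 0 and 0 UMIs in STAM16w and STAM20w, against 16 and 46 UMIs in DEN22w and DEN30w. Placing these at the bound that 3 counts give cannot move the list's median of 1.28, since both lie below it either way. Ifi213, an interferon-inducible gene that is not in the list, was called higher, with 8.03 and 7.59 CPM in the STAM sections, against 1.07 and 1.11 CPM in the DEN+CCl4 sections (log2 fold change 2.92 ± 0.33, edgeR adjusted p = 0.0373).

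The promoters of Isg15, Ifit1, Ifit3 and Rsad2 are shown because they carry the letters of that response element. The bases run 5′ to 3′ from 160 before the annotated start to the base before it, from RefSeq in GRCm38.p6, and capitals mark matches to GAAA, any 2 bases and GAAA again (TTTC, any 2 bases and TTTC where the element lies on the opposite strand).
Isg15, chr4:156200819-156200978, minus strand: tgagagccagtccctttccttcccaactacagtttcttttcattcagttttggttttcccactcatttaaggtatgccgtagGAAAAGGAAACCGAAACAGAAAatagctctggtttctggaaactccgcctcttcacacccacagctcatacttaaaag
Ifit1, chr19:34640729-34640888, plus strand: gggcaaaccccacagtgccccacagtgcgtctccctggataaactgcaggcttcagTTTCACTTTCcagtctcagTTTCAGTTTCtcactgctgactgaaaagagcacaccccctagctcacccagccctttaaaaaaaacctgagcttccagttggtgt
Ifit3, chr19:34583369-34583528, plus strand: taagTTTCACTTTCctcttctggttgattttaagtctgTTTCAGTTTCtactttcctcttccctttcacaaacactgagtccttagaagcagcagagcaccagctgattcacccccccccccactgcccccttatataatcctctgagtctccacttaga
Rsad2, chr12:26456453-26456612, minus strand: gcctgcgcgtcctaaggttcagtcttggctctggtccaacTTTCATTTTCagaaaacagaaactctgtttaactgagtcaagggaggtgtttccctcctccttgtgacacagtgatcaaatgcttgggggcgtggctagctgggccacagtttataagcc
In Isg15 the 3 matches overlap in a single run that begins 78 bases before the start. Ifit1 and Ifit3 each hold 2 separate matches, the first beginning 104 and 156 bases before the start, and Rsad2 holds 1, beginning 120 bases before it. Over windows of 250 bases before to 50 after the start, 14 of 23 interferon list genes with a promoter entry (60.9%) held a match, against 3.99% of 27025 genes with an entry. Of the tested genes with an entry, 3.82% held one; in the fatty acid oxidation list 1 of 21 did (4.76%), and in the lipid droplet list 0 of 16. The 14 list genes with a match had a median log2 fold change of 1.62 (from -0.52 to 2.63) and the 9 without one 1.04 (from -8.02 to 1.91). A match is a description of the letters in this window and not of binding.

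Other genes called higher in STAM had varied roles. Rgs16, which shortens signalling by G proteins, had 43.8 and 56.2 CPM in STAM16w and STAM20w, against 3.63 and 1.43 CPM in DEN22w and DEN30w (log2 fold change 4.41 ± 0.45, edgeR adjusted p = 0.0291). Nlrp12, a regulator of inflammatory signalling, had 103 and 103 CPM in the STAM sections, against 4.59 and 6.93 CPM in the DEN+CCl4 sections (log2 fold change 4.25 ± 0.25, edgeR adjusted p = 0.0149). Eif4ebp3, a repressor of cap-dependent translation, had 206 and 273 CPM in the STAM sections, against 47.5 and 46.8 CPM in the DEN+CCl4 sections (log2 fold change 2.43 ± 0.24, edgeR adjusted p = 0.0288). Gm15441, an RNA antisense to Txnip, had 17.4 and 33.8 CPM in the STAM sections, against 0.214 and 0.478 CPM in the DEN+CCl4 sections (log2 fold change 6.19 ± 0.49, edgeR adjusted p = 0.0178); use of strand in the counting is not stated, so its reads and those of Txnip cannot be told apart with certainty. Sptlc3, a subunit of the enzyme that starts sphingolipid synthesis, had 26 and 69 UMIs in STAM16w and STAM20w, against 0 and 0 UMIs in DEN22w and DEN30w, at least 36.3-fold higher in STAM against a floor of 3 counts over the summed DEN+CCl4 UMIs. The others, at lower levels or smaller folds, were Themis, Vpreb3, Clstn3, Rarres1, H2-Q6, Hbb-bs and 5033406O09Rik, with log2 fold changes from 1.83 to 6.09. Of these, Themis and Vpreb3, known from lymphocyte development, had few UMIs: 26 and 43 UMIs in STAM16w and STAM20w, against 0 and 1 UMIs in DEN22w and DEN30w for Themis and 26 and 93 UMIs in STAM16w and STAM20w, against 1 and 2 UMIs in DEN22w and DEN30w for Vpreb3.

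Hamp2 (ENSMUSG00000056978; chromosome 7, 30922372 to 30924181) had the highest level among the genes called lower in STAM. It is the second mouse copy of the hepcidin gene and stood at 12.0 and 16.5 CPM in STAM16w and STAM20w, against 1162 and 792 CPM in DEN22w and DEN30w (log2 fold change -6.03 ± 0.42, edgeR adjusted p = 0.0149). Its paralog Hamp encodes hepcidin, the hormone with which hepatocytes restrain iron export. Hamp had 1949 and 1972 CPM in the STAM sections, against 6566 and 4099 CPM in the DEN+CCl4 sections (log2 fold change -1.37, edgeR adjusted p = 0.159), in the same direction and short of the threshold. Of 17 iron genes tested, 0 were called higher and 1 lower, and the median was -0.14, beside 0.227% called higher and 0.133% lower over all genes tested. The ferritin chains, which store iron, had log2 fold changes above 0 that were not called: Fth1 had 5017 and 8690.0 CPM in the STAM sections, against 2647 and 2509.5 CPM in the DEN+CCl4 sections (adjusted p = 0.141) and Ftl1 had 7279 and 8363 CPM in the STAM sections, against 3802 and 3766 CPM in the DEN+CCl4 sections (adjusted p = 0.176). Since the paralogs are alike in sequence, reads could be shared between Hamp and Hamp2.

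Cyp26a1, the enzyme that hydroxylates and so clears retinoic acid, was nearly undetected in STAM, with 3 and 11 UMIs in STAM16w and STAM20w, against 770 and 628 UMIs in DEN22w and DEN30w. As a level this was 0.454 and 0.879 CPM in STAM16w and STAM20w, against 82.2 and 50.0 CPM in DEN22w and DEN30w (log2 fold change -6.45 ± 0.46, edgeR adjusted p = 0.0149). Of 18 retinoid genes tested, 0 were called higher and 1 lower, 12 had a negative log2 fold change, and the median was -0.45. Ttr, the carrier of thyroid hormone and of retinol-binding protein in plasma, had 4467 and 3820.1 CPM in the STAM sections, against 19053 and 13793 CPM in the DEN+CCl4 sections (adjusted p = 0.115), while Rbp4, retinol-binding protein itself, had 6483 and 8852 CPM in the STAM sections, against 4678 and 2837 CPM in the DEN+CCl4 sections (adjusted p = 0.241) and lay the other way. Retsat, a retinol saturase, had 537 and 631 CPM in the STAM sections, against 152 and 109 CPM in the DEN+CCl4 sections (log2 fold change 2.24, adjusted p = 0.0620).

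The complement calls were confined, among the 23 complement genes tested, to a pair of duplicated proteases. C1rb had 4 and 3 UMIs in STAM16w and STAM20w, against 287 and 326 UMIs in DEN22w and DEN30w (log2 fold change -6.13 ± 0.42, edgeR adjusted p = 0.0149) and C1s2 had 2 and 1 UMIs in STAM16w and STAM20w, against 100 and 258 UMIs in DEN22w and DEN30w (log2 fold change -6.42 ± 0.62, edgeR adjusted p = 0.0258). Both are second copies, in mouse, of the proteases of complement component 1, and reads could be shared with the other copies. The abundant complement genes were not called: C3, the central component, had 4069 and 5054 CPM in the STAM sections, against 6039.5 and 10826 CPM in the DEN+CCl4 sections (adjusted p = 0.353), and the median of the list was -0.20. In bile acid synthesis and transport, 1 of 22 genes was called lower and 0 higher, with a median of -0.01. The called gene was Slc10a2, a sodium-dependent bile acid uptake transporter best known from ileum and bile ducts, with 1.36 and 1.52 CPM in the STAM sections, against 24.4 and 52.2 CPM in the DEN+CCl4 sections (log2 fold change -4.61 ± 0.43, edgeR adjusted p = 0.0252). Abcb11, the pump that exports bile acids into the canaliculus, had 153 and 167 CPM in the STAM sections, against 451 and 399 CPM in the DEN+CCl4 sections (adjusted p = 0.0834).

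Other genes called lower lay outside these lists. Csad, which makes hypotaurine on the way to taurine, had 21.1 and 19.97 CPM in STAM16w and STAM20w, against 81.4 and 107 CPM in DEN22w and DEN30w (log2 fold change -2.10 ± 0.21, edgeR adjusted p = 0.0291). Cyp46a1, a cholesterol 24-hydroxylase best known from brain, had 2.27 and 1.44 CPM in the STAM sections, against 66.0 and 35.1 CPM in the DEN+CCl4 sections (log2 fold change -4.75 ± 0.48, edgeR adjusted p = 0.0291). Abca3, a lipid transporter best known from lung surfactant, had 45.6 and 43.0 CPM in the STAM sections, against 159 and 166 CPM in the DEN+CCl4 sections (log2 fold change -1.78 ± 0.21, edgeR adjusted p = 0.0423). The long noncoding RNA gene D630033O11Rik had 3.03 and 4.63 CPM in the STAM sections, against 34.1 and 24.4 CPM in the DEN+CCl4 sections (log2 fold change -2.82 ± 0.31, edgeR adjusted p = 0.0332). Gm10503 had 0 and 0 UMIs in STAM16w and STAM20w, against 52 and 80 UMIs in DEN22w and DEN30w, at least 38.4-fold lower in STAM against the same floor. Raet1d, a ligand of an activating receptor of natural killer cells, had 0.606 and 1.44 CPM in the STAM sections, against 12.8 and 14.4 CPM in the DEN+CCl4 sections (log2 fold change -3.54 ± 0.37, edgeR adjusted p = 0.0320). Eif3j2, a copy of a translation factor subunit gene, had 0 and 0.0799 CPM in the STAM sections, against 10.1 and 10.4 CPM in the DEN+CCl4 sections (log2 fold change -7.27 ± 0.56, edgeR adjusted p = 0.0178). The remaining calls were Gm10260, Gm12166 and AA465934, between -4.63 and -2.81 on the log2 scale.

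The lists of urea synthesis, amino acid breakdown and glucose metabolism gave 0 calls outside the scoring genes, which does not show that they were equal. Of 11 urea cycle and ammonia genes, 0 were called, 9 had a negative log2 fold change, and the median was -0.39. Cps1, the first enzyme of the cycle, had 1847 and 2210.5 CPM in STAM16w and STAM20w, against 2866 and 2780.4 CPM in DEN22w and DEN30w (adjusted p = 0.540). Arg1, the last, had 813 and 1236 CPM in the STAM sections, against 1320.1 and 1375 CPM in the DEN+CCl4 sections (adjusted p = 0.616). Of 22 amino acid breakdown genes, 0 were called, 17 had a negative log2 fold change and the median was -0.47. Gnmt, which consumes methyl groups through glycine, had 1113 and 1265 CPM in the STAM sections, against 2245 and 2198 CPM in the DEN+CCl4 sections (adjusted p = 0.224). Gluconeogenesis and glycolysis had 0 of 18 called and a median of 0.01. Fbp1, fructose bisphosphatase, had 1080.3 and 1064 CPM in the STAM sections, against 875 and 1399.5 CPM in the DEN+CCl4 sections. The 15 periportal genes outside the score had 0 calls and a median of -0.12, and the 15 pericentral ones 0 calls. Among the pericentral genes Cyp2a5, a coumarin hydroxylase, had 1088 and 853 CPM in the STAM sections, against 112 and 56.8 CPM in the DEN+CCl4 sections (log2 fold change 3.60, adjusted p = 0.0546).

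Secreted proteins and stress genes gave 0 calls in each list. Of 22 acute phase genes, 17 had a negative log2 fold change, with a median of -0.36, and the sections of a model were far apart: Saa1, an acute phase apolipoprotein, had 1097 and 2235 CPM in STAM16w and STAM20w, against 102 and 11605 CPM in DEN22w and DEN30w. Of 14 apolipoproteins the median was 0.14. Apoa2 had 23073 and 24427 CPM in the STAM sections, against 22769 and 15389 CPM in the DEN+CCl4 sections. In the unfolded protein and integrated stress response, 0 of 23 genes were called and the median was -0.04; Hspa5, the chaperone of the endoplasmic reticulum, had 411 and 955 CPM in the STAM sections, against 1143 and 2077 CPM in the DEN+CCl4 sections (adjusted p = 0.244). Among 6 metallothionein and zinc genes, with a median of 0.01, Mt1 had 2904 and 2835 CPM in the STAM sections, against 213 and 4022 CPM in the DEN+CCl4 sections, low in DEN22w alone. The circadian clock list had 0 of 18 called and a median of -0.49; Dbp, an output gene of the clock, had 93.8 and 25.2 CPM in the STAM sections, against 185 and 80.7 CPM in the DEN+CCl4 sections. The p53 and DNA damage list had 0 of 20 called and a median of 0.24, the insulin and IGF list 0 of 15 and -0.18, and the cell cycle list 0 of 23 and 0.33. Igfbp1, an insulin-repressed binding protein, had 168 and 636 CPM in the STAM sections, against 9.72 and 155 CPM in the DEN+CCl4 sections and was not called (adjusted p = 0.304).

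**Figure D4:**
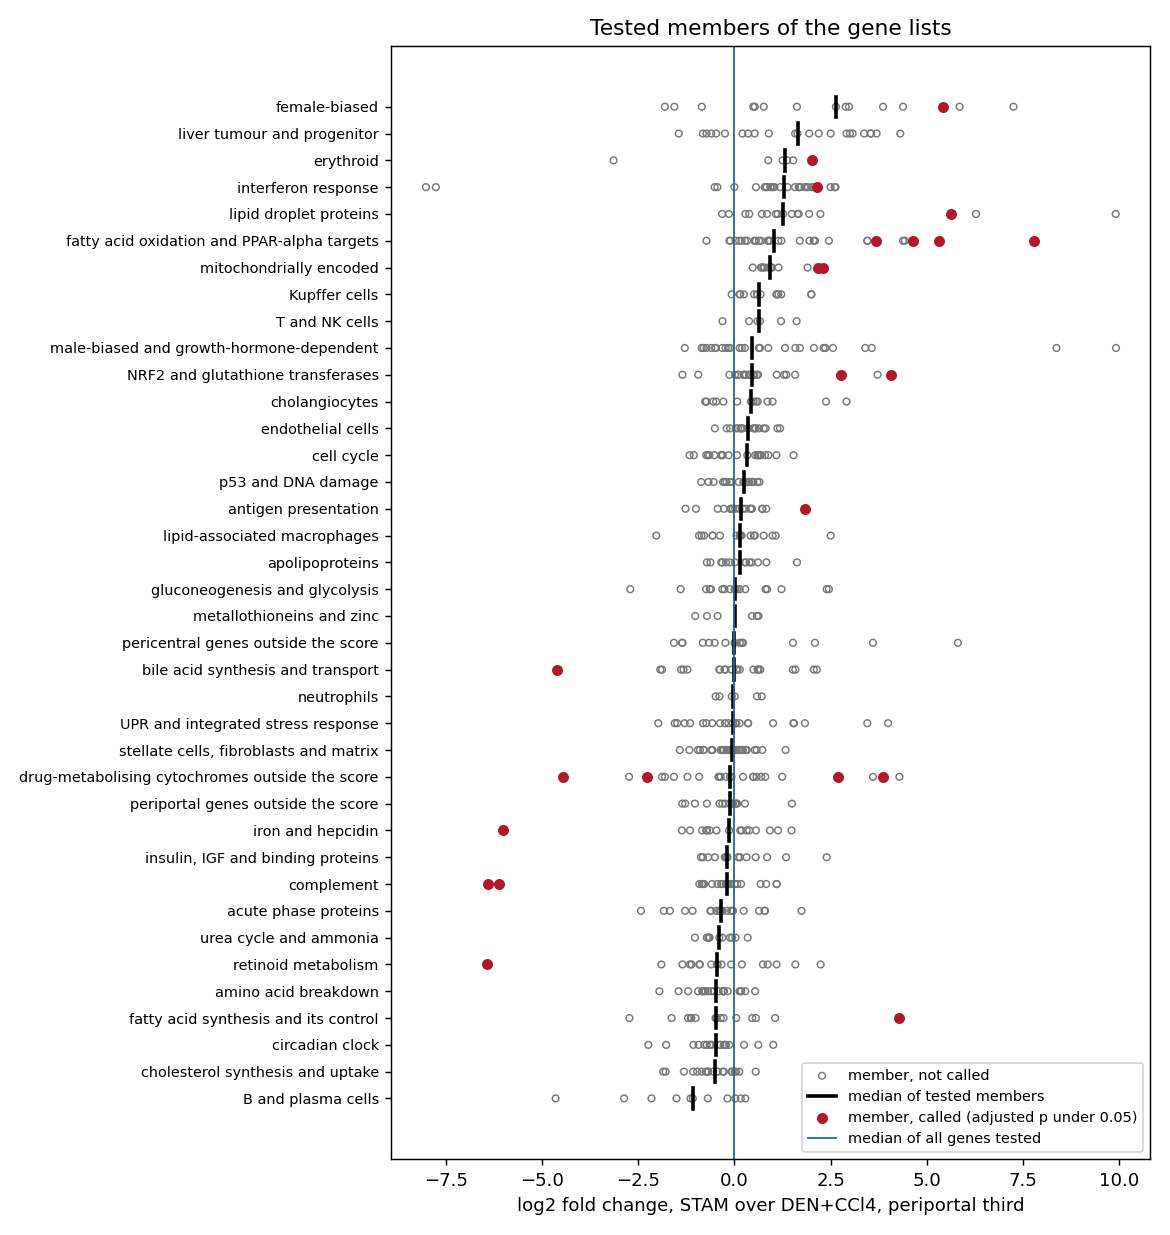
Log2 fold change, STAM over DEN+CCl4, of every tested member of each gene list in the periportal zone. Open circles are members that were not called, filled red circles are called members, black bars are list medians and the blue line is the median of all genes tested at -0.004. Most lists straddle 0; medians above 1 belong to the female-biased, tumour and progenitor, erythroid, interferon, lipid droplet and fatty acid oxidation lists, and the interferon list has members down to -8.02.

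The lists of other cells that share the spots gave 1 call between the models, and the antigen presentation list gave 1. Haemoglobin gene Hbb-bs had 131 and 129 CPM in the STAM sections, against 29.1 and 39.3 CPM in the DEN+CCl4 sections (log2 fold change 2.02 ± 0.22, edgeR adjusted p = 0.0332), within an erythroid list of 6 tested genes with a median of 1.31. The erythroid sum was 0.0311% and 0.0279% of UMIs in STAM16w and STAM20w, against 0.0248% in each of DEN22w and DEN30w. Alas2, of haem synthesis, was the 1 of these 6 genes with a negative log2 fold change (-3.15, edgeR adjusted p = 0.129). It had 27.1 and 4.07 CPM in the STAM sections, against 163 and 130 CPM in the DEN+CCl4 sections. Alas2 held 1523 of the 2319 erythroid UMIs in DEN22w and 1631 of 3111 in DEN30w. The class I gene H2-Q6 had 31.1 and 44.0 CPM in the STAM sections, against 10.6 and 11.8 CPM in the DEN+CCl4 sections (log2 fold change 1.83 ± 0.22, edgeR adjusted p = 0.0433), within 18 antigen presentation genes with a median of 0.17. Stellate, fibroblast and matrix genes had 0 of 34 called and a median of -0.07, with sums of 0.129% and 0.190% of UMIs in the STAM sections, against 0.118% and 0.163% in the DEN+CCl4 sections. Endothelial genes had 0 of 17 called (median 0.35; 0.0542% and 0.0660% in STAM, against 0.0583% and 0.0501% in DEN+CCl4), and Kupffer cell genes, of the resident macrophages, 0 of 14 (median 0.64; 0.0952% and 0.127% in STAM, against 0.0568% and 0.0796% in DEN+CCl4). Clec4f, which marks Kupffer cells, had 166 and 183 CPM in the STAM sections, against 87.4 and 71.7 CPM in the DEN+CCl4 sections (adjusted p = 0.0839). Lipid-associated macrophage genes had 0 of 18 called (median 0.15), cholangiocyte genes 0 of 15 (median 0.44), T and NK cell genes 0 of 6 (median 0.63), B and plasma cell genes 0 of 11 (median -1.08) and neutrophil genes 0 of 6 (median -0.03). Of 28 liver tumour and progenitor genes 23 passed the filter on low counts. Of these 23, 0 were called, but the median was 1.64, and genes seen in STAM alone could pass that filter. Their sum was 0.0496% in STAM16w and 0.255% in STAM20w, against 0.0303% in DEN22w and 0.0570% in DEN30w. Fabp4, a fatty acid-binding protein of that list, had 44.2 and 833 CPM in the STAM sections, against 24.5 and 20.7 CPM in the DEN+CCl4 sections. Afp, alpha-fetoprotein, had 8.64 and 81.2 CPM in the STAM sections, against 3.31 and 3.90 CPM in the DEN+CCl4 sections, so the list was high in STAM20w above all. Without the compact patches the list's median was 1.66, and the log2 fold change of Fabp4 was 4.07 (adjusted p = 0.133). With the tenth of spots richest in tumour-like genes left out of each section, the edgeR test called 73 genes higher and 50 lower, including all 46 of the full comparison, and without the compact patches it called 35 and 20, again including all 46.

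Called genes differed in how widely they were seen across spots. Cyp4a14 was found in 98.6% and 99.2% of the periportal spots of STAM16w and STAM20w, against 8.31% and 9.91% of those of DEN22w and DEN30w. After each spot was thinned to 2000 UMIs the shares were 84.1% and 97.8% in STAM, against 1.97% and 1.73% in DEN+CCl4. Fitm1 was found in 57.6% and 66.1% of the periportal spots of STAM16w and STAM20w, against 2.08% and 3.03% of those of DEN22w and DEN30w, and after thinning in 18.5% and 22.6% in STAM, against 0.232% and 0.576% in DEN+CCl4. Hamp2 was found in 10.2% and 17.3% of the periportal spots of STAM16w and STAM20w, against 96.5% and 87.8% of those of DEN22w and DEN30w, and after thinning in 2.50% and 3.41% in STAM, against 86.2% and 75.6% in DEN+CCl4. Cyp26a1 was found in 0.433% and 1.06% of the periportal spots of STAM16w and STAM20w, against 51.6% and 40.0% of those of DEN22w and DEN30w. The exact binomial 95% intervals of these shares did not overlap between the models; for Hamp2 they ran from 8.09 to 12.7% and from 14.9 to 19.8% in STAM16w and STAM20w, against 95.1 to 97.6% and 85.6 to 89.7% in DEN22w and DEN30w. Such intervals treat the spots of a section as independent and do not measure the spread between sections. They and all counts at 0 cover counting error only. Isg15 was found in a minority of spots everywhere. The shares were 35.1% and 44.1% of periportal spots in STAM16w and STAM20w, against 11.5% and 15.5% in DEN22w and DEN30w. With so few DEN+CCl4 spots holding any of its UMIs, how concentrated they were within spots cannot be compared between the models.

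The pericentral zone of the same sections was compared to show where the periportal comparison differed. There edgeR called 59 of 12865 genes higher in STAM (0.459%) and 44 lower (0.342%). Of the 46 genes called in the periportal zone, 38 (82.6%) were also called in the pericentral zone, and all 46 had the same sign there. Most periportal calls were thus not particular to that zone. The 2 comparisons share sections, so their values are given side by side. Cyp4a14 had a pericentral log2 fold change of 6.99, beside 7.78 in the periportal zone, Fitm1 6.05 beside 5.63, Hamp2 -5.68 beside -6.03, and Cyp26a1 -6.97 beside -6.45. Isg15 had 1.67 (adjusted p = 0.0621) in the pericentral zone, beside 2.16. The interferon list had a pericentral median of 0.84, beside 1.28, and the stellate and matrix list -0.74, beside -0.07.

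Whether the difference between the models itself differed by zone was tested as the interaction of model and zone with the section as a block. Of 13419 genes, 53 were called (0.395%), 31 with a larger log2 fold change in the periportal zone and 22 with a smaller one. The rule that chose the spots fixes the zone contrast, so the ratios of periportal to pericentral level that follow are descriptions, and only the difference between the models was tested. Among the 31 were 4 collagens, which were the called members of 34 stellate, fibroblast and matrix genes tested. Col1a1, the main chain of fibrillar collagen, had 26.1 and 21.9 CPM in STAM16w and STAM20w, against 16.6 and 33.7 CPM in DEN22w and DEN30w in the periportal zone, and 19.6 and 28.7 CPM in STAM16w and STAM20w, against 52.2 and 111 CPM in DEN22w and DEN30w in the pericentral zone. Its log2 ratio of periportal to pericentral level was 0.41 in STAM16w and -0.39 in STAM20w, against -1.66 in DEN22w and -1.72 in DEN30w (interaction 1.46 ± 0.20, edgeR adjusted p = 0.0147). Col1a2 had ratios of 0.15 in STAM16w and -0.32 in STAM20w, against -1.37 in DEN22w and -1.53 in DEN30w (interaction 1.16 ± 0.16, edgeR adjusted p = 0.0147), Col3a1 of 0.09 in STAM16w and -0.16 in STAM20w, against -1.11 in DEN22w and -1.22 in DEN30w (0.95 ± 0.13, edgeR adjusted p = 0.0147) and Col6a1 of 0.28 in STAM16w and -0.30 in STAM20w, against -1.67 in DEN22w and -1.56 in DEN30w (1.31 ± 0.22, edgeR adjusted p = 0.0314). In the DEN+CCl4 sections all 4 collagens were thus lower in the periportal than in the pericentral zone, and in the STAM sections the ratios lay between -0.39 and 0.41. Among the periportal and pericentral zones, the DEN+CCl4 pericentral spots also had the lowest median UMI counts. Whether depth had a part in the collagen values was not tested. The thinned setting that follows also lowered the summed UMIs and drew the zones anew, so it cannot tell depth from lost counts or changed zones. With every spot thinned to 2000 UMIs and shallower spots left out, none of the 4 collagens was called: the interaction was 0.70 for Col1a1 (edgeR adjusted p = 0.449), 0.39 for Col1a2 (0.741), 0.47 for Col3a1 (0.529) and 0.83 for Col6a1 (0.666, all adjusted p). Of the 30 interaction genes with named values, 8 were called after thinning, 30 kept their sign and 8 were smaller by over 1.5 times. The 8 called were Ighg2b, H19, Tmsb10, Cd74, Hsd17b13, Slc22a3, Nudt7 and Cyp3a11.

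Of 18 antigen presentation genes tested for the interaction, 3 were called, all with a larger log2 fold change in the periportal zone. Cd74, the invariant chain of class II molecules, had ratios of -0.01 in STAM16w and -0.20 in STAM20w, against -1.46 in DEN22w and -1.40 in DEN30w (interaction 1.15 ± 0.13, edgeR adjusted p = 0.00479). H2-Ab1, a class II chain, had ratios of -0.08 in STAM16w and -0.27 in STAM20w, against -1.02 in DEN22w and -1.16 in DEN30w (0.75 ± 0.13, edgeR adjusted p = 0.0425). H2-Q6 had 0.45 in STAM16w and 0.72 in STAM20w, against -0.39 in DEN22w and -0.80 in DEN30w (1.09 ± 0.19, edgeR adjusted p = 0.0341). Other genes called in that direction belong to other lists or to none. Ccl5, a chemokine of T cells, had 0.87 in STAM16w and 0.48 in STAM20w, against -0.88 in DEN22w and -0.93 in DEN30w (1.37 ± 0.22, edgeR adjusted p = 0.0246). Tmsb10, an actin-binding peptide, had 0.12 in STAM16w and 0.23 in STAM20w, against -1.24 in DEN22w and -1.44 in DEN30w (1.35 ± 0.14, edgeR adjusted p = 0.00264). Alcam, an adhesion molecule, had 0.81 in STAM16w and 1.23 in STAM20w, against -0.36 in DEN22w and -0.46 in DEN30w (1.33 ± 0.17, edgeR adjusted p = 0.00845). Immunoglobulin chains Ighg2b and Ighg2c were called too, but rested on few sections: Ighg2b had 0 and 690 periportal UMIs in STAM16w and STAM20w, against 1 and 1216 in DEN22w and DEN30w, and was not called without STAM20w. With the tenth of spots richest in other cell types left out, 19 genes were called with a larger fold change in the periportal zone, 15 of them among the 31.

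Hsd17b13, a lipid droplet enzyme of hepatocytes, had a larger ratio of periportal to pericentral level in STAM. It had 845 and 1242 CPM in STAM16w and STAM20w, against 385 and 399 CPM in DEN22w and DEN30w in the periportal zone and 264 and 357 CPM in STAM16w and STAM20w, against 285 and 252 CPM in DEN22w and DEN30w in the pericentral zone. The log2 ratios were 1.68 in STAM16w and 1.80 in STAM20w, against 0.44 in DEN22w and 0.66 in DEN30w (interaction 1.02 ± 0.15, edgeR adjusted p = 0.0165). Crat, which moves acetyl groups onto carnitine, had an interaction of 0.97 ± 0.15, edgeR adjusted p = 0.0179. Cyp2b10, a drug-inducible cytochrome, had ratios of 2.15 in STAM16w and 2.52 in STAM20w, against 1.05 in DEN22w and 0.88 in DEN30w (1.38 ± 0.25, edgeR adjusted p = 0.0458). H19, an imprinted noncoding RNA of fetal liver and tumours, had 1.35 in STAM16w and 3.15 in STAM20w, against -2.16 in DEN22w and -1.67 in DEN30w (4.48 ± 0.40, edgeR adjusted p = 0.000844), with 6.97 and 44.9 CPM in the STAM sections, against 2.14 and 4.30 CPM in the DEN+CCl4 sections. Slpi, a secreted protease inhibitor, had 0.26 in STAM16w and 0.999 in STAM20w, against -1.76 in DEN22w and -1.37 in DEN30w (2.18 ± 0.20, edgeR adjusted p = 0.000844). Without STAM20w, Slpi and Cyp2b10 were not called. Without the compact patches H19 had an interaction of 4.37 (adjusted p = 4.11e-06).

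In the other direction, several genes leaned more to the pericentral side in STAM than in DEN+CCl4. Nat8, an acetyltransferase, had ratios of -1.42 in STAM16w and -2.13 in STAM20w, against -0.03 in DEN22w and -0.10 in DEN30w (interaction -1.87 ± 0.20, edgeR adjusted p = 0.00281). Slc22a3, an organic cation transporter, had -1.22 in STAM16w and -2.15 in STAM20w, against 0.14 in DEN22w and 0.92 in DEN30w (-2.61 ± 0.31, edgeR adjusted p = 0.00660), Elovl3, an elongase of fatty acids, -0.89 in STAM16w and -1.01 in STAM20w, against -0.00 in DEN22w and 0.13 in DEN30w (-1.15 ± 0.17, edgeR adjusted p = 0.0165), and Nudt7, a coenzyme A hydrolase of peroxisomes, -0.17 in STAM16w and -0.30 in STAM20w, against 0.48 in DEN22w and 0.51 in DEN30w (-0.90 ± 0.13, edgeR adjusted p = 0.0170). Cyp3a11 had -1.43 in STAM16w and -1.12 in STAM20w, against -0.29 in DEN22w and -0.57 in DEN30w (-1.01 ± 0.17, edgeR adjusted p = 0.0337), Lhpp, a phosphatase, -2.18 in STAM16w and -2.50 in STAM20w, against -1.76 in DEN22w and -1.21 in DEN30w (-1.15 ± 0.19, edgeR adjusted p = 0.0246), and Alas2, the erythroid form of the first enzyme of haem synthesis, -0.23 in STAM16w and -0.66 in STAM20w, against 0.44 in DEN22w and 0.47 in DEN30w (-1.01 ± 0.16, edgeR adjusted p = 0.0246). Serpinb1a, a protease inhibitor, had -0.52 in STAM16w and -1.301 in STAM20w, against 0.51 in DEN22w and 0.47 in DEN30w (-1.68 ± 0.25, edgeR adjusted p = 0.0179). Slco1a4, an organic anion transporter, had -1.28 in STAM16w and -0.53 in STAM20w, against 0.28 in DEN22w and 0.29 in DEN30w (-1.14 ± 0.20, edgeR adjusted p = 0.0425). Maoa, a monoamine oxidase, had -1.38 in STAM16w and -3.28 in STAM20w, against -0.47 in DEN22w and -0.56 in DEN30w (-2.65 ± 0.40, edgeR adjusted p = 0.0179), and the imprinted noncoding RNA Meg3 had -2.40 in STAM16w and -3.27 in STAM20w, against -1.98 in DEN22w and -1.70 in DEN30w (-1.25 ± 0.22, edgeR adjusted p = 0.0391). Without the compact patches the test called 113 genes with a larger and 128 with a smaller log2 fold change in the periportal zone, including 30 of the 31 and 14 of the 22. Maoa and Meg3 depended on the compact patches of STAM20w, without which Maoa had an interaction of -0.61 (adjusted p = 0.171) and Meg3 of -0.09 (adjusted p = 0.923).

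**Figure D5:**
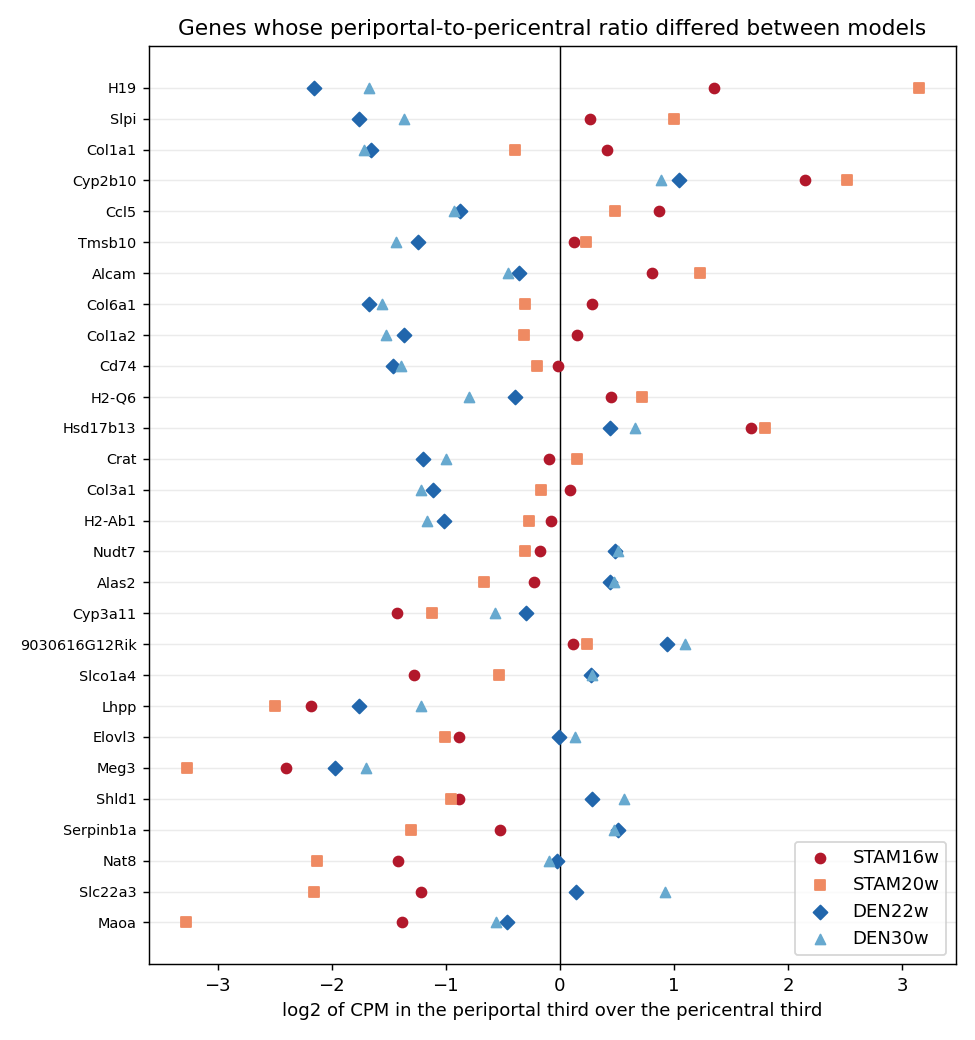
Log2 ratio of periportal over pericentral CPM in each section for the called interaction genes that the text names and that had UMIs in all sums; the black line marks equal levels. From H19 to H2-Ab1 both STAM points lie right of both DEN+CCl4 points, and from Nudt7 to Maoa left of them.

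Sections of the same model also differed from each other, with 1 section at each time and so no test. Cyp4a14 had 1100.2 CPM in STAM16w (exact Poisson 95% interval 1075 to 1126) and 2601 CPM in STAM20w (2573 to 2630). Scd1 had 92.9 CPM (85.7 to 101) in STAM16w and 1094 CPM (1076 to 1113) in STAM20w, and Saa1 had 102 CPM (95.6 to 109) in DEN22w and 11605 CPM (11545 to 11664) in DEN30w. Slc10a2 had 24.4 CPM (21.3 to 27.7) in DEN22w and 52.2 CPM (48.2 to 56.3) in DEN30w. Fitm1 had non-overlapping intervals in STAM16w (96.0 to 112) and STAM20w (116 to 129), and overlapping ones in DEN22w (1.47 to 3.56) and DEN30w (1.68 to 3.50).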

How the data were processed

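Spatial libraries (10x Visium) of 4 fresh-frozen mouse liver sections gave a matrix of UMI counts per spot, deposited by the authors as raw whole-number counts. Per the submitters' processing notes these came from Space Ranger 1.3.1, with STAR and mm10 named among tools and builds. Spots with at least 500 UMIs and 250 genes were kept, scored and split by score into 3 zones of equal size within each section, and counts were summed per section and zone. A spot can hold several cells, and no doublet caller or deconvolution was run. Position was taken from the deposited spot grid; 1133 barcodes occur in all 4 sections as array positions and do not mean shared cells.

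Genes passing filterByExpr were tested with edgeR 4.0.16 (TMM, quasi-likelihood, Benjamini-Hochberg, threshold 0.05) in R 4.3.3, 2 sections against 2. The interaction of model and zone had the section as a block. The 9 scoring genes stayed in library sizes and out of the tests. SE is the log2 fold change divided by the square root of F. DESeq2 1.42.0, other scalings, filters, cuts of the score, spot filters, thinning and leaving out sections were alternatives; leaving out compact patches was added after seeing the data. The scripts were tested on simulated data. Members and gene lists were chosen with earlier results of these data known. Named genes were the called, separated genes at 20 CPM or more with the 15 largest log2 fold changes each way, the 8 smallest p-values each way among interaction calls, and called or abundant list members; other called genes were named after their values were seen. Promoters came from RefSeq for GRCm38.p6. Results for some genes are not reported here.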

Additional observations from a re-analysis of the deposited data

Results flagged for a closer look

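For 30 of the named genes the difference between STAM and DEN+CCl4 was itself different in the periportal and the pericentral zone, by edgeR's test of the interaction of model and zone with the section as a block. Values are the periportal minus the pericentral log2 fold change, STAM over DEN+CCl4. The 4 called of 34 stellate, fibroblast and matrix genes had positive values: Col1a1 (1.46), Col1a2 (1.16), Col3a1 (0.95) and Col6a1 (1.31). So did the 3 called of 18 antigen presentation genes, Cd74 (1.15), H2-Ab1 (0.75) and H2-Q6 (1.09). The other positive values were those of Ccl5 (1.37), Tmsb10 (1.35), Alcam (1.33), Ighg2b (4.38), Ighg2c (3.999), H19 (4.48), Slpi (2.18), Hsd17b13 (1.02), Crat (0.97) and Cyp2b10 (1.38). Negative values were those of Nat8 (-1.87), Slc22a3 (-2.61), Elovl3 (-1.15), Nudt7 (-0.90), Maoa (-2.65), Cyp3a11 (-1.01), Slco1a4 (-1.14), Lhpp (-1.15), Alas2 (-1.01), Serpinb1a (-1.68), Shld1 (-1.53), Meg3 (-1.25) and 9030616G12Rik (-1.03).

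Without the compact patches, a choice made after seeing the data, Maoa, Meg3, Cyp2b10, Slco1a4 (-0.85, adjusted p = 0.0696) and Shld1 (-1.06, adjusted p = 0.0688) were not called by edgeR. Of the 30 named genes, those no longer called without STAM20w were Ighg2b, Slpi, Serpinb1a, Maoa, Cyp2b10, H2-Q6 and Meg3. Further interaction calls outside the named genes were also lost in that fit, which has a lone STAM section. Cd74 and Slc22a3 were called in 17 of 17 alternatives. Median depth per spot and the sums of stellate and matrix genes differed by zone in DEN+CCl4 (0.118% and 0.163% in the periportal zone, 0.181% and 0.251% in the pericentral zone, DEN22w and DEN30w), and after thinning to 2000 UMIs a spot 8 of the 30 genes were called, with 0 of the 4 collagens among them. Thinning also lowered the summed UMIs and drew the zones anew, and the part of depth was not tested.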

How the results depend on the processing

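All 46 genes called in the periportal zone and all 30 named interaction genes kept their sign in every alternative that gave them a value, but the number of calls moved. Both STAM sections already lay on 1 side of both DEN+CCl4 sections for all 46, and so did the zone ratios of 29 larger and 22 smaller interaction calls. Leaving out a section could thus hardly change a sign, so the kept signs are not a test of these genes. The median log2 fold change kept its sign in all alternatives for 21 of 38 lists. In the periportal zone, 29 genes were called higher in STAM and 17 lower; the counts were 457 and 327 with DESeq2, 864 and 695 with no filter on low counts, 78 and 41 with 0.25 of the spots at each end, 55 and 30 with the score of 5 genes, and 73 and 50 without the tenth of spots richest in tumour-like genes. Leaving out 1 section gave 0 to 538 higher and 0 to 499 lower. In the pericentral zone (59 and 44), they were 686 and 437 with DESeq2, 18 and 26 with library size alone, 1345 and 984 with no filter, 31 and 12 after thinning to 2000 UMIs, and 89 higher without compact patches; leaving out 1 section gave 0 to 1523 and 1 to 1306. For the interaction (31 and 22), they were 11 and 13 with DESeq2, 12 lower with upper-quartile factors, 144 higher with library size alone, 273 and 338 with no filter, 8 lower with 0.25 of the spots, 86 and 93 with 1 cut of the score, 8 and 6 after thinning, 19 higher without spots rich in other cell types, 19 and 11 without tumour-like spots, 113 and 128 without compact patches, and 39 lower against all other spots; leaving out 1 section gave 70 to 546 and 50 to 461. The cause was not tested, except that no filter adds genes and leaving out a section removes samples. No paired analysis was possible because the labels give the sections of the models no shared replicate numbers.

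Limits: 2 sections stand for each model, each at its own time, and no label ties a section to an animal. A spot mixes cells. Depth per spot and the score's range differed between models. Genes with few UMIs, such as Themis and Sptlc3, are limited by depth, and near-identical copies are uncertain one by one.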
